A study of Homo sapiens with 6 samples.

Results

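The SRC family kinases are non-receptor tyrosine kinases at the inner face of the plasma membrane. The genes SRC, YES1, FYN, LYN, LCK, FGR, BLK and FRK, together with CSK, the kinase that holds the family in check, were picked out by gene symbol from the deposited RNA-seq table. All 9 genes had rows, among 19223 gene symbols in all, and their rows comprised 19 of 45006 transcripts. The main transcript of a gene is the one whose mean value, taken across 6 libraries, was highest. The RNA came from LoVo, an established line of human colorectal adenocarcinoma cells, in 3 Control libraries from cells with vehicle and 3 libraries from cells given 2.5 μM DCC-2036, a tyrosine kinase inhibitor also called rebastinib. The labels give a treatment of 48 h, whereas a figure legend of the study names a shorter time for the same dose. The study asked how the compound acts on colorectal cancer cells and placed FGR at the head of the signalling axis it proposed.

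Kinases of this family are tethered to membranes by lipid groups and relay signals from receptors and adhesion sites. CSK phosphorylates a tyrosine in their tail, which folds the kinase into an inactive form, and phosphatases that remove this phosphate open it again. SRC, YES1 and FYN are found in most tissues, whereas LYN, LCK, FGR and BLK are best known from blood cells, and raised SRC and YES1 activity has long been described in colorectal cancer.

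The values are a signal that the authors had adjusted to a common depth, so the depth of the libraries is unknown, as is how reads of overlapping genes or close copies were assigned. Column totals were 38997229, 39956227 and 40587145 without the compound and 43279603, 45957597 and 48023306 with it. Transcripts of 1 gene often carried near-identical values. Markers of epithelial cells were abundant: KRT8 lay between 55603 and 125395, and EPCAM between 4524 and 5961. Of 11 markers of colorectal epithelium, however, CDX1 and LGR5 were at 0 in all 6 libraries, CEACAM5 did not exceed 0.90 and VIL1 did not exceed 4.12, so these 4 were at or near 0, while the intestinal factor CDX2 (213 to 365) and general epithelial genes were present. In bulk RNA, fewer cells with a transcript and less of it per cell cannot be told apart. Nothing in the labels says that the libraries of a group came from separate cultures, so the p-values measure the spread between libraries, which may be technical.

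A gene entered the test when 3 or more libraries reached 10. limma was run on log2(value + 1), two-sided, with Benjamini-Hochberg adjustment over all 12725 such genes, and a gene was called when its adjusted p was under 0.01. Fold changes on this scale understate changes of low values. Of the 9 members, 7 were tested, and 2 of these, LYN and FYN, were called, both higher with DCC-2036. Among all tested genes 41.9% were called, 19.2% as higher and 22.7% as lower. At a looser limit of 0.05, YES1 and FRK joined them, making 4 of 7 members against 62.2% of all tested genes. The values of the Control and DCC-2036 libraries did not overlap in 3 members, each higher with DCC-2036, against 32.9% of tested genes higher and 38.1% lower without overlap. The median log2 fold change of the 7 members was 0.48, beside -0.09 over all tested genes. Calls were thus common in the whole table, and the counts of the members are to be read against that.

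**Figure D1:**
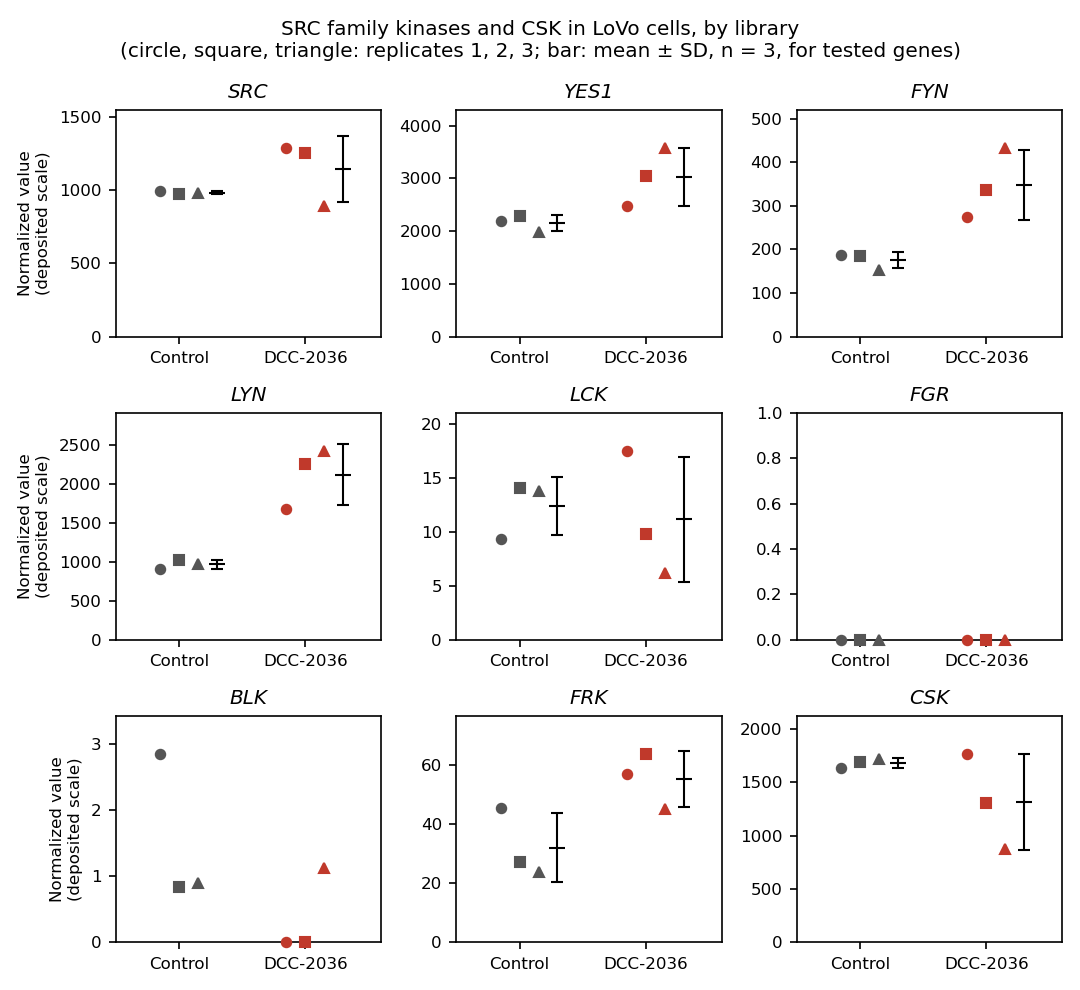
Normalized value (y axis, deposited scale, from 0) of the main transcript of each of the 9 genes in the 3 Control and 3 DCC-2036 libraries, with circles, squares and triangles for replicates 1, 2 and 3 and mean ± SD (n = 3) for tested genes. LYN, FYN and YES1 lay higher in every DCC-2036 library than in every Control library, and FGR was at 0 in all 6.

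Promoter windows from RefSeq (GRCh38.p14), each from 250 bases before to 50 after a start, were found for 6 of the 9 genes, 11 windows in all, and not for SRC, LYN and BLK. They were searched for GGGCGG on both strands (CCGCCC on the strand shown), the core of the GC box that SP1, a factor in the axis of the study, is known to bind. Of 35116 windows of this kind 45.0% held it, as did 5 of the 11. FYN, YES1 and FGR are shown because the first was called, the second lay above Control without a call and the third was at 0, while all 3 windows hold the motif, 2, 3 and 3 times. All are on the minus strand and given 5′ to 3′, with the motif in capitals. The FYN window belongs to the start of the main transcript.
FYN chr6:111873403-111873702: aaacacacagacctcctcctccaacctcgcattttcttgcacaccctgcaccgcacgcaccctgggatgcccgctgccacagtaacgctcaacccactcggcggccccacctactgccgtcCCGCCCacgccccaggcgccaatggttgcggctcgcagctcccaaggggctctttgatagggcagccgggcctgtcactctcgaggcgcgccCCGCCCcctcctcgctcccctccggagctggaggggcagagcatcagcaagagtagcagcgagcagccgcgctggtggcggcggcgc
YES1 chr18:812193-812492: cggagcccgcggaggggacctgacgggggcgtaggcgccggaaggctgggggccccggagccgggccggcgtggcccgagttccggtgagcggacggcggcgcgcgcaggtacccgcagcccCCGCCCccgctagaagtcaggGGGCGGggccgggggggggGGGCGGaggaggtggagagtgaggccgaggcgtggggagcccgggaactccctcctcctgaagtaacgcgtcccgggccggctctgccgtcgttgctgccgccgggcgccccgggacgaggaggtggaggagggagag
FGR chr1:27635136-27635435: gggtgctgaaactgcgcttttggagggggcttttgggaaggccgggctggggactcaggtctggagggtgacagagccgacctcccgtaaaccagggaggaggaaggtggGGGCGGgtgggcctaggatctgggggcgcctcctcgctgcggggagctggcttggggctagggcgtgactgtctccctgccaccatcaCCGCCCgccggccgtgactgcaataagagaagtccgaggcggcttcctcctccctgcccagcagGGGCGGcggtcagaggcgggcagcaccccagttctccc

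The share of G and C was 69.0% in this FYN window, 78.7% in that of YES1 and 68.7% in that of FGR, beside a median of 58.7% over all windows. Of the other windows of FYN 1 held the motif 8 times (82.3% G and C) and 2 did not hold it (38.0% and 47.3%), and the other window of FGR held it once (59.0%). The windows of CSK (54.3%) and FRK (42.3%) and both of LCK (64.3% and 58.7%) held no GGGCGG. A match describes the letters of a window only.

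Among the kinases of most tissues, SRC, the founding member, stood at 992, 972 and 980.2 without the compound and at 1286, 1255 and 887 with it. DCC-2036 replicates 1 and 2 lay above the Control libraries and replicate 3 below them, so the groups overlapped. The log2 fold change was 0.20 (95% interval -0.19 to 0.59, adjusted p = 0.312, limma). Leaving out DCC-2036 replicate 3 gave 0.37, and scaling the libraries to equal totals gave 0.0017, and these 2 settings had the lowest and the highest adjusted p of 16 alternatives, 0.0116 and 0.995 in limma.

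YES1, a close relative of SRC with overlapping functions, stood at 2191, 2278 and 1988 without the compound and at 2478, 3041 and 3575 with it. Each DCC-2036 library lay above each Control library, by a small margin in replicate 1. Its log2 fold change of 0.48 (standard error 0.16) was not called (adjusted p = 0.0345, limma). Leaving out DCC-2036 replicate 1 gave 0.62, which was called (limma, adjusted p = 0.00726), whereas equal totals gave 0.28 (adjusted p = 0.108), and over 16 alternatives the adjusted p ranged from 0.00726 to 0.11.

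FYN, a kinase of adhesion and of T cell and neuronal signalling, stood at 187, 185 and 154 without the compound and at 275, 336 and 433 with it. All 3 DCC-2036 libraries were above all Control libraries, with the highest value in replicate 3. The mean went from 175 ± 18.9 (SD, n = 3) to 348 ± 79.7 (SD, n = 3), which limma gave as 0.96 on the log2 scale, with a standard error of 0.19 and an adjusted p of 0.00518. The call was lost in 4 of the 6 fits with 1 library left out: the adjusted p was 0.0178, 0.0182 and 0.0234 without Control replicates 1, 2 and 3, and 0.02 without DCC-2036 replicate 2. The log2 fold change stayed between 0.80 and 1.12 in these 6 fits. Without a filter on low values, where 16667 genes were tested, the adjusted p was 0.0123, and over 16 alternatives it ranged from 0.00211 to 0.0234.

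The table lists 3 transcripts of FYN. Per the GENCODE 29 annotation of GRCh38, they differ in their coding sequence by an alternative exon: the main transcript NM_002037.5 and NM_153047.3 each carry a version of their own, and NM_153048.3 carries neither. Both exons are printed because they are the coding sequence by which the transcripts can be told apart. They lie on the minus strand of GRCh38, as exon 9 of 14 at chr6:111700104-111700268 in NM_002037.5 (165 bases) and as exon 6 of 11 at chr6:111699515-111699670 in NM_153047.3 (156 bases), and are given 5′ to 3′ with capitals for the 93 bases that were identical in a global alignment of the pair.
NM_002037.5 exon: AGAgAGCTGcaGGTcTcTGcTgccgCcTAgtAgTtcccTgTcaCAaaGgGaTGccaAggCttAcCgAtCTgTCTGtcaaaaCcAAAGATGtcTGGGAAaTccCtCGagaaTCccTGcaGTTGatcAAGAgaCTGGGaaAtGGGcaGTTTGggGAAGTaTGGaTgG
NM_153047.3 exon: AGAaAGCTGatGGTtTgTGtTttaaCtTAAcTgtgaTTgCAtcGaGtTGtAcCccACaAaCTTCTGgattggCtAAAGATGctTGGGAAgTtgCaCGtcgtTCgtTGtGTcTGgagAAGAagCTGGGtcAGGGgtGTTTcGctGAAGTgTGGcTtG

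NM_153047.3 stood at 161, 152 and 127 without the compound and at 212, 250.1 and 332 with it. For NM_153048.3 the Control values were 139, 145 and 117, and the DCC-2036 values were 203, 232 and 328. Neither transcript overlapped between the groups. As separate rows among 32323 tested transcripts, all 3 FYN transcripts were called, with log2 fold changes of 0.96, 0.83 and 0.90 (adjusted p = 0.00498, 0.00943 and 0.00812, limma). In that fit 6379 of the 32323 rows were called higher and 7250 lower. The 3 FYN transcripts share most of their coding exons, so their rows are not independent results. Relative to the main transcript in the same library, NM_153047.3 stood at 86.0%, 82.0% and 82.6% without the compound and at 77.0%, 74.5% and 76.7% with it. This share was lower in each DCC-2036 library than in each Control library, but 3 libraries against 3 cannot give an exact permutation p below 0.1, and the value was p = 0.1 (two-sided, adjusted p = 0.525 over 7 transcript pairs). The share of NM_153048.3 overlapped between the groups, at 76.2% ± 1.9 (SD, n = 3) and 73.0% ± 3.5 (SD, n = 3). The transcripts also differ in length outside these exons, and how shared reads were assigned is unknown, so these shares do not measure the use of the exons alone.

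**Figure D2:**
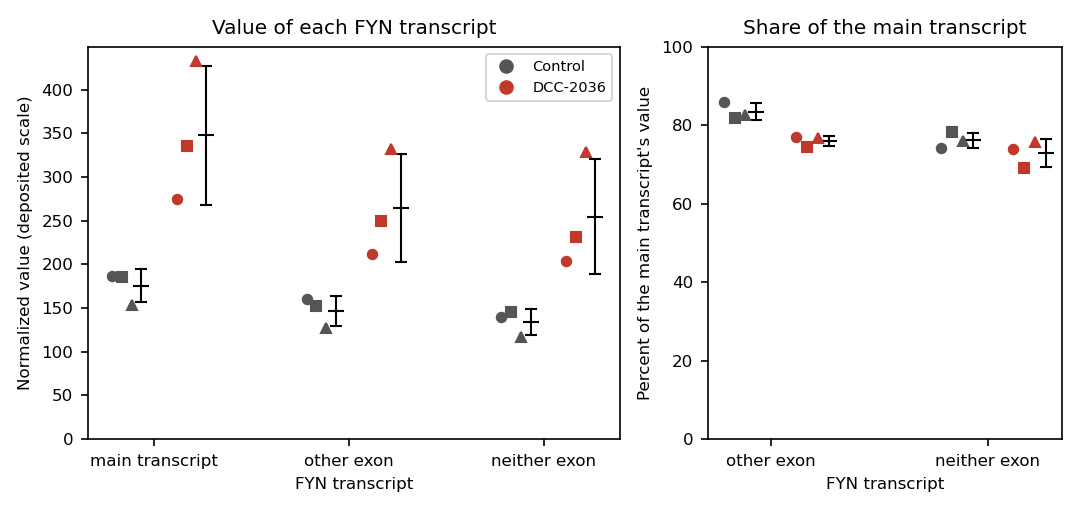
Values of the 3 FYN transcripts by library (left, deposited scale) and values of the 2 minor transcripts as a percentage of the main transcript in the same library (right), for 3 Control (grey) and 3 DCC-2036 (red) libraries with circles, squares and triangles for replicates 1, 2 and 3 and mean ± SD (n = 3). "Other exon" is NM_153047.3 and "neither exon" is NM_153048.3; the share of NM_153047.3 was between 82.0% and 86.0% in Control and between 74.5% and 77.0% in DCC-2036.

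Among the kinases best known from blood cells, LYN rose, and its log2 fold change was the largest of the 7 tested members. LYN, which acts downstream of the B cell receptor and of cytokine receptors, stood at 910.1, 1019 and 965 without the compound and at 1679, 2246 and 2419 with it. The lowest DCC-2036 value lay well above the highest Control value. The Control mean was 964 ± 54.3 (SD, n = 3) and the DCC-2036 mean 2114 ± 387 (SD, n = 3). limma gave this as 1.12 on the log2 scale, with a 95% interval of 0.735 to 1.497 and an adjusted p of 0.00168, and 6.51% of all tested genes had a larger log2 fold change. Without Control replicate 1 the log2 fold change was 1.07 and the adjusted p 0.0102, so that LYN was not called, and over 16 alternatives the adjusted p ranged from 0.000239 to 0.0102. LYN has 2 transcripts in the table. The other, NM_001111097.2, stood at 848, 937 and 899 without the compound and at 1559.8, 2110.3 and 2276 with it. As a row of its own it changed by 1.13 on the log2 scale (limma over all tested transcripts, adjusted p = 0.00165). Its share of the main transcript was 92.8% ± 0.7 (SD, n = 3) in Control and 93.7% ± 0.7 (SD, n = 3) in DCC-2036 (exact permutation p = 0.3).

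By the root mean square difference of log2(value + 1), taken over the 6 libraries as deviations from each gene's own Control mean, the 3 tested genes most like LYN were CCNK (0.03), a cyclin partner of transcriptional kinases, GOT1 (0.05), the cytosolic aspartate aminotransferase, and STK24 (0.05), a serine/threonine kinase. Their log2 fold changes were 1.11, 1.13 and 1.05.

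LCK, the kinase that starts signalling from the T cell receptor, was near the lower limit of the test, at 9.33, 14.1 and 13.8 without the compound and 17.5, 9.79 and 6.18 with it. DCC-2036 replicate 1 held the highest and replicate 3 the lowest of the 6 values, and the groups overlapped. The log2 fold change was -0.23 (95% interval -1.08 to 0.62, adjusted p = 0.589, limma), and its sign turned, to 0.10, when DCC-2036 replicate 3 was left out. With equal totals it was -0.41. In limma the adjusted p was 0.781 and 0.382 in these settings and ranged from 0.0834 to 0.803 over 15 alternatives. Of its other transcripts, NM_005356.4 ranged from 3.89 to 16.5 and NM_001330468.1 from 1.48 to 13.4, and each overlapped between the groups.

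FGR, a kinase of myeloid cells, was at 0 in all 6 libraries in each of its 3 transcripts, NM_001042729.1, NM_001042747.1 and NM_005248.2. No test and no fold can be given. In all, 2556 symbols (13.3%) were at 0 throughout, whereas each of 20 housekeeping genes, looked up after the zeros had been seen, had values above 0 in every library, the lowest being 451. The smallest values above 0 in Control replicates 1, 2 and 3 were 0.820, 0.606 and 0.752 on the deposited scale. The depth is unknown, so FGR is described as listed at 0. How much RNA could have gone undetected below such values is not known. The study reports FGR protein in LoVo cells from immunoblots and a pull-down. It also reports less DKK1 and SP1 protein in LoVo cells after FGR was silenced, and less DKK1 mRNA after FGR knockdown. In its immunoblots, added FGR countered the loss of DKK1 under DCC-2036. Why FGR RNA was listed at 0 here, and whether the cells or the table are as labelled, was not tested beyond the markers above.

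BLK, a kinase of B cells, stood at 2.86, 0.833 and 0.893 without the compound and at 0.00326, 0.00702 and 1.13 with it, the same in its 2 transcripts. The groups overlapped, and BLK lay under the filter and was not tested. Its values of 0.00326 and 0.00702 lay next to the smallest above 0 in DCC-2036 replicates 1 and 2, 0.003260 and 0.007017, which 485 and 543 transcripts carried, whereas the smallest Control value above 0 was 0.606. No transcript was at 0 in some but not all of the DCC-2036 libraries, against 3919 in Control, so a 0 in DCC-2036 means 0 in all 3 libraries of that group. Low values are thus not alike in the 2 groups, and no fold is given for BLK.

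Markers of blood cells were given beside these kinases. CD2, CD3D and CD3G, which define T cells, MS4A1 of B cells, FCGR3A of myeloid cells and PTPRC, the pan-leukocyte marker, were at 0 in all 6 libraries. Summed over 7 T cell markers, the values were 60.2, 59.8 and 51.4 without the compound and 40.4, 33.7 and 39.8 with it, most of it CD4, and 3 of the 7 were at 0 throughout. CD4 was lower in each DCC-2036 library, at 53.7, 49.2 and 43.1 against 29.02, 21.8 and 31.5, CD8A overlapped, and CD3E was at 0 in Control and at 1.05, 1.1 and 2.29 in DCC-2036. The sum of 5 B cell markers was 7.52, 6.03 and 11.2 without the compound and 5.30, 16.1 and 19.4 with it, with CD79A the most abundant (up to 19.2) and 1 at 0 throughout. The sum of 7 myeloid markers was 13.0, 22.2 and 22.2 without the compound and 26.1, 35.9 and 61.8 with it, with LYZ the most abundant (up to 25.1) and 1 at 0 throughout. Of 4 leukocyte markers PTPRC was at 0, and the sum was 252, 255 and 285 without the compound and 468, 592 and 578 with it, most of it LCP1, an actin-bundling gene that carcinoma cells also express. LCP1 stood at 135, 137 and 166 without the compound and at 377, 492 and 476 with it, whereas CORO1A was lower in each DCC-2036 library, at 115, 119 and 116 against 91.3, 99.5 and 102, and CD53, at most 2.81 in Control, was at 0 in DCC-2036, so the higher leukocyte sum rested on LCP1. The 4 fibroblast markers, mostly COL1A1, summed to 423, 404 and 361 without the compound and 501, 432 and 534 with it, and the 3 endothelial markers, mostly VWF, to 14.2, 4.98 and 14.9 without it and 40.2, 15.4 and 20.3 with it, with 0 genes at 0 throughout in either list. On the deposited scale, the myeloid, leukocyte, fibroblast and endothelial sums were thus higher in each DCC-2036 library than in each Control library. So were LYN, FYN and YES1. With equal column totals, the fibroblast and endothelial sums overlapped between the groups. The T cell sum was lower in each DCC-2036 library, and the B cell sum overlapped. The sum of the 11 markers of colorectal epithelium was also higher in each DCC-2036 library, at 104483, 108193 and 114998 without the compound and 148337, 163485 and 188447 with it. Of these, CDH1 stood at 1635, 1569 and 1609.7 against 3305, 3458 and 3571, while KRT20 was lower, at 64.1, 43.6 and 51.5 against 17.7, 28.0 and 24.6. Few genes carried these sums: CD14, ITGAM, CSF1R, SPI1 and LYZ of the myeloid list, COL3A1, DCN and LUM of the fibroblast list and PECAM1 and CDH5 of the endothelial list overlapped between the groups. The part of other cell types in these results was not tested.

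FRK, a more distant relative known from epithelial cells, stood at 45.4, 27.0 and 23.7 without the compound and at 57.0, 63.7 and 45.0 with it. Control replicate 1 stood apart from the other Control libraries and just above DCC-2036 replicate 3. The log2 fold change, 0.81 (standard error 0.26), was not called (limma, adjusted p = 0.0341). Leaving out Control replicate 1 gave 1.08, which was called (limma, adjusted p = 0.00937), and over 16 alternatives the adjusted p ranged from 0.00937 to 0.106. FRK, like YES1, has 1 transcript in the table.

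CSK stood at 1635, 1694 and 1719 without the compound and at 1768, 1311 and 874 with it. The Control libraries lay close together, whereas the DCC-2036 libraries ran from above the highest Control value to well below the lowest. The log2 fold change was -0.41 (95% interval -1.01 to 0.19, adjusted p = 0.189, limma), -0.14 without DCC-2036 replicate 3 and -0.65 without DCC-2036 replicate 1, with adjusted p from 0.024 to 0.413 over 16 alternatives. The second CSK transcript, NM_001127190.1, stood at 95.3% ± 1.6 (SD, n = 3) of the main one in Control and at 94.2% ± 0.6 (SD, n = 3) in DCC-2036. The second SRC transcript, NM_005417.4, stood at 98.2% ± 0.4 and 98.1% ± 0.5, so neither share moved beyond its spread.

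**Figure D3:**
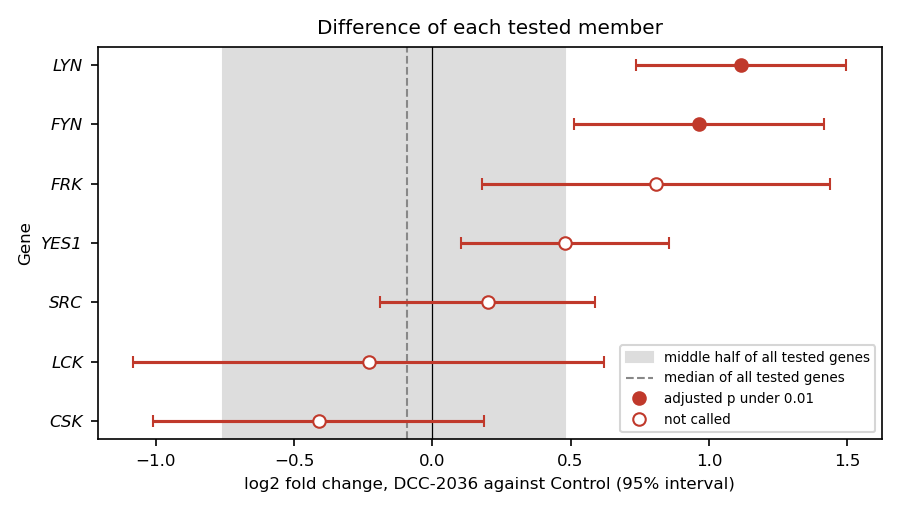
log2 fold change of the 7 tested members, DCC-2036 against Control on the log2(value + 1) scale (x axis), with 95% intervals from limma, filled where called at an adjusted p under 0.01. The shaded band spans the quartiles of all tested genes (-0.755 to 0.48) and the dashed line their median (-0.09); LYN, FYN and FRK lie to the right of the band and YES1 at its edge.

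A scaling of the libraries moves all genes together. With equal column totals, the median log2 fold change of all tested genes went from -0.09 to -0.29, a larger shift than with the other scalings, and the higher share of called genes went from 45.8% to 32.7%. Relative to the median of all tested genes, the log2 fold change was 1.21 for LYN, 1.06 for FYN, 0.90 for FRK, 0.57 for YES1, 0.29 for SRC, -0.14 for LCK and -0.32 for CSK. The sign of each raw log2 fold change was the same under all 3 scalings. The DCC-2036 libraries also varied more among themselves than the Control libraries: the mean correlation of a library with the others of its group, over tested genes, was 0.9783, 0.986 and 0.9764 in DCC-2036 and 0.9917, 0.9923 and 0.9916 in Control. Replicate 3 held the highest DCC-2036 value of YES1, FYN and LYN and the lowest of SRC, LCK, FRK and CSK.

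A ratio of genes within a library does not depend on its scaling, and the kinases were therefore set against CSK, a description chosen after the values had been seen and not tested. The SRC to CSK ratio was 0.61, 0.57 and 0.57 without the compound and 0.73, 0.96 and 1.02 with it. The LYN to CSK ratio was 0.56, 0.60 and 0.56 without the compound and 0.95, 1.71 and 2.77 with it. The YES1 to CSK ratio was 1.34, 1.34 and 1.16 against 1.40, 2.32 and 4.09, and that of FYN 0.11, 0.11 and 0.09 against 0.16, 0.26 and 0.50. The FRK to CSK ratio was 0.0278, 0.0160 and 0.0138 against 0.0323, 0.0486 and 0.0515, whereas the ratio of LCK overlapped, at 0.0057, 0.0083 and 0.0081 against 0.0099, 0.0075 and 0.0071. The other 5 ratios were higher in each DCC-2036 library than in each Control library, and so was the ratio to CSK of 36.8% of all other tested genes, while that of 20.1% was lower without overlap. CSK itself was low in DCC-2036 replicates 2 and 3, which raises any ratio to it there.

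**Figure D4:**
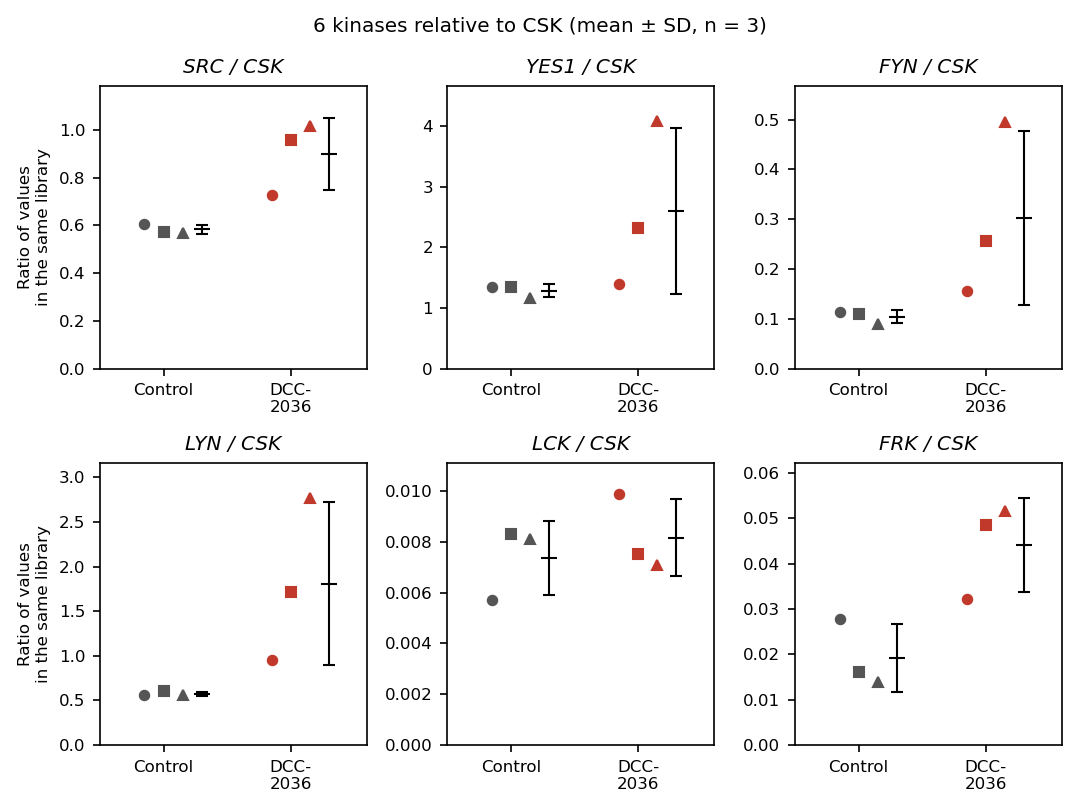
Ratio of the values of SRC, YES1, FYN, LYN, LCK and FRK to that of CSK in the same library (y axes from 0, no unit), for 3 Control (grey) and 3 DCC-2036 (red) libraries with circles, squares and triangles for replicates 1, 2 and 3 and mean ± SD (n = 3). Each DCC-2036 ratio lies above each Control ratio except for LCK, for YES1 by the margin from 1.34 to 1.40.

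Levels of different genes were compared as the value per kilobase of transcript. Lengths from GENCODE 29 were found for 7 of the 9 main transcripts, not for those of SRC and BLK. RefSeq identifiers were matched without their version number, so a length may differ from that of the transcript counted. The orders below rest on these lengths. In Control the order was CSK (608 ± 15.6 per kilobase, SD, n = 3), YES1 (485 ± 33.5), LYN (419.9 ± 23.6), FYN (48.3 ± 5.2), LCK (5.92 ± 1.28), FRK (2.42 ± 0.88) and FGR (0). The 3 values of each gene did not overlap those of its neighbours in this order. In DCC-2036 the order began with LYN (921 ± 168), YES1 (683 ± 124) and CSK (476 ± 162), and the values of LYN and YES1 overlapped, as did those of YES1 and CSK. The level of LYN depends on the length used. NM_001111097.2, with 5808 bases in place of 2297, stood at 154 ± 7.7 per kilobase in Control and 341 ± 64.5 in DCC-2036. Before division by length, its value in Control was 92.8% ± 0.7 (SD, n = 3) of that of the main transcript.

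The genes around the family were read from lists chosen by function, with earlier results of these data known. MATK, a relative of CSK, did not exceed 1.87 and was not tested. The distant relatives PTK6 and SRMS were tested and not called, and their median log2 fold change was 0.51. PTK6 stood at 82.1, 44.3 and 58.8 without the compound and at 75.8, 99.5 and 112 with it (log2 fold change 0.65, adjusted p = 0.0615, limma). SRMS had 153, 141 and 148 against 191, 186 and 197, a small difference without overlap (log2 fold change 0.37, adjusted p = 0.0137, limma).

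Of 6 genes that anchor CSK or mark the kinases for degradation, 2 were called higher, 2 lower and 2 not called, with a median log2 fold change of 0.01. LIME1, an adaptor that recruits CSK, stood at 241, 244 and 177 without the compound and at 439.8, 490.4 and 639 with it (log2 fold change 1.24, adjusted p = 0.00238, limma), and DOK1, an adaptor that dampens tyrosine kinase signals, fell from 410, 458 and 476 to 179, 166 and 168 (log2 fold change -1.38, adjusted p = 0.000287, limma). The ubiquitin ligases CBLB and CBLC were called in opposite directions, with log2 fold changes of 0.68 and -0.83. CBL (-0.01) and PAG1, the best known membrane anchor of CSK (0.03), were not called. DOK1 was called in all 6 fits without 1 library. The others were not: LIME1 lost its call without DCC-2036 replicate 2, CBLB without Control replicates 2 or 3 or DCC-2036 replicate 2, and CBLC in each fit but that without DCC-2036 replicate 3. CBLB was also not called with equal totals (adjusted p = 0.0157, limma), nor CBLC with scaling by the median of ratios (0.0141) or with no filter (0.0171). Over the left-out fits the adjusted p ranged from 0.00229 to 0.0104 for LIME1, 0.00279 to 0.0139 for CBLB and 0.000714 to 0.0316 for CBLC.

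Of 10 phosphatases that act on the kinases or on CSK, 8 were tested, 3 were called higher, 1 lower and 4 not, with a median of -0.06. PTPRA and PTPN1, which can remove the inhibitory tail phosphate of SRC, had log2 fold changes of 0.81 and 0.75 (adjusted p = 0.001 and 0.00136, limma), and both were called in all 6 fits without 1 library. PTPRA stood at 1129, 1061 and 1158 without the compound and at 1851, 2052 and 1988 with it. PTPN2, which can dephosphorylate SRC family kinases, had a log2 fold change of 1.18 (adjusted p = 0.00242, limma). PTPN6, the phosphatase SHP-1, fell from 974, 933 and 1022 to 538, 403 and 278, a log2 fold change of -1.31 (adjusted p = 0.00384, limma). The last 2 were not called without any 1 of the Control libraries or DCC-2036 replicate 2, and their adjusted p ranged from 0.000405 to 0.0127 and from 0.00106 to 0.0183. PTPRC was at 0, and PTPN22, a partner of CSK in lymphocytes, stayed at or below 9.04.

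Of 9 genes for the lipid anchor and the traffic of the kinases, 5 were called higher, 1 lower and 3 not, and the median was 0.70. METAP1 and METAP2, which remove the first methionine before the myristoyl group is added, had log2 fold changes of 1.16 and 0.84. NMT2, which adds the myristoyl group, stood at 435, 442 and 453 without the compound and at 843, 983 and 1082 with it (log2 fold change 1.12, adjusted p = 0.000708, limma), whereas NMT1, which does the same, was not called (-0.23, adjusted p = 0.219, limma). UNC119 and UNC119B, carriers of myristoylated proteins, had log2 fold changes of 0.96 and 0.70. The chaperone HSP90AA1 fell from 79920, 82297 and 71436 to 37124, 42964 and 57875 (log2 fold change -0.78, adjusted p = 0.00966, limma), just inside the limit, whereas its relative HSP90AB1 stood at 104532, 106888 and 111344 without the compound and at 116737, 130534 and 143359.9 with it and was not called (log2 fold change 0.27, adjusted p = 0.0753, limma). NMT2, UNC119 and UNC119B were called in all 6 fits without 1 library. METAP1 and METAP2 were not called without any 1 of the Control libraries or DCC-2036 replicate 2 (adjusted p from 0.000887 to 0.0133 and from 0.00208 to 0.0172 over the 6 fits), and HSP90AA1 was called in 1 of these fits, that without DCC-2036 replicate 3 (range 0.00138 to 0.0387). HSP90AA1 was also not called with scaling by the median of ratios (adjusted p = 0.0179, limma) or the upper quartile (0.0107), with no filter (0.0208), with a pseudocount of 0.1 (0.0104) or with transcripts summed (0.0119).

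Of 23 substrates and adaptors at adhesions, 20 were tested, 3 were called higher, 3 lower and 14 not, with a median of -0.28. The 6 called genes were TRAF4 (-1.51), CAV1 (-0.91), ANXA2 (0.78), CTNND1 (0.71), AFAP1 (0.69) and VCL (-0.63), each given as its log2 fold change. CAV1, which encodes caveolin-1, first known as a substrate of viral SRC, stood at 7933, 7901 and 7685 without the compound and at 4405, 4109 and 4006 with it. TRAF4 and CAV1 were called in all 6 fits without 1 library. ANXA2, CTNND1 and VCL were not called without any 1 of the Control libraries or DCC-2036 replicate 2, and their adjusted p ranged from 0.00203 to 0.0215, 0.00114 to 0.0148 and 0.0033 to 0.0335. AFAP1 was not called without Control replicates 2 or 3 or DCC-2036 replicate 2 (range 0.00227 to 0.0129). CTNND1 was also not called with equal totals (adjusted p = 0.0151, limma), nor VCL (0.0174) and ANXA2 (0.011) with no filter. The focal adhesion kinase PTK2 (0.19), its docking partner BCAR1 (-0.755), PXN (0.03) and CTTN (-0.30), the best known SRC substrates at these sites, were not called (adjusted p = 0.173, 0.0393, 0.769 and 0.0323, limma).

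Of 11 substrates in signalling, 4 were called higher, 2 lower and 5 not, with a median of 0.20. CRKL, an adaptor, stood at 2940, 2831 and 2710.4 without the compound and at 5443, 6979 and 8140.0 with it (log2 fold change 1.26, adjusted p = 0.00122, limma). Its relative CRK fell from 2035.7, 2063 and 1867 to 1121, 834 and 462 (log2 fold change -1.39, adjusted p = 0.00868, limma). STAT3 (0.87), KHDRBS1 (0.77) and PLCG1 (0.69) were called higher, and DOK1, also a member of this list, lower. CRKL and STAT3 were called in all 6 fits without 1 library. CRK and KHDRBS1 were not called without any 1 of the Control libraries or DCC-2036 replicate 2, and their adjusted p ranged from 0.00223 to 0.0326 and from 0.00131 to 0.0151. PLCG1 was called in the fit without DCC-2036 replicate 3 and in none of the other 5 (range 0.00129 to 0.0384). PLCG1 was also not called with equal totals (adjusted p = 0.0599, limma), no filter (0.0205), a pseudocount of 0.1 (0.0101) or transcripts summed (0.0112), nor CRK with no filter (0.019) or transcripts summed (0.0119).

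Counted once each, 55 genes of the 6 lists were tested, 17 were called higher, 8 lower and 30 not, with a median log2 fold change of 0.19, beside 2442 higher, 2887 lower and 7396 not called among all 12725 tested genes, with a median of -0.09. The 6 lists were chosen with earlier results of these data known. The axis named by the study is no independent list either, and 5 of its genes are given here. DKK1, a secreted inhibitor of WNT signalling, was called, falling from 13198, 14663 and 13694 to 2140.4, 2001 and 2535 (log2 fold change -2.64, adjusted p = 0.000178, limma), and FGR was at 0. AKT1 (-0.05), AKT2 (0.42) and SP1 (-0.39) were not called.

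**Figure D5:**
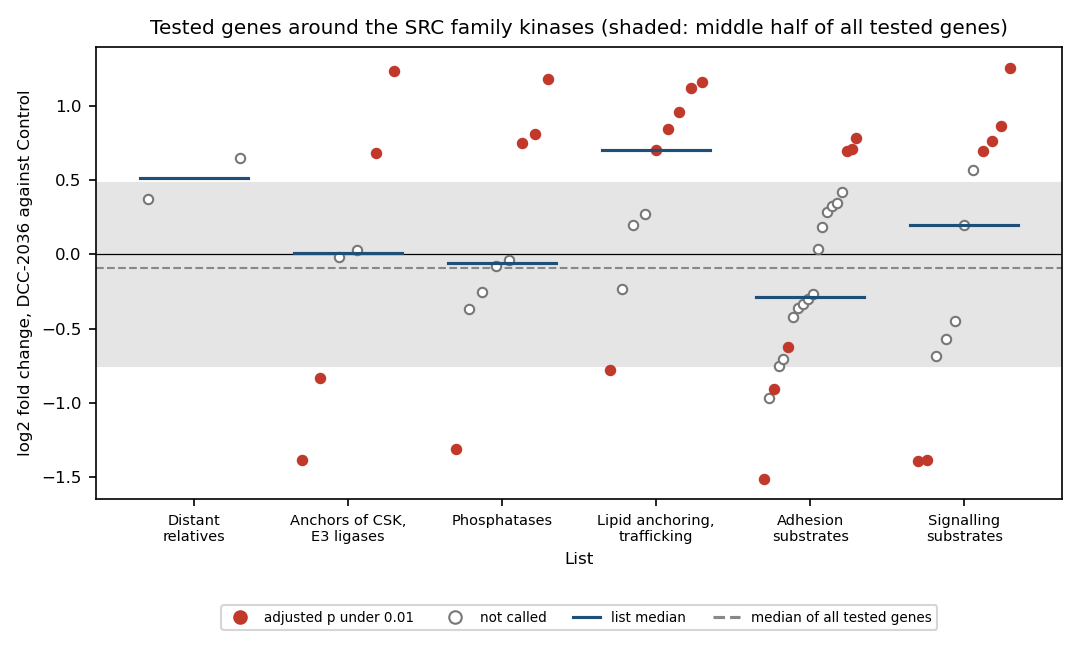
log2 fold change (y axis, DCC-2036 against Control, log2(value + 1) scale) of each tested gene of 6 lists around the SRC family kinases, filled red where called at an adjusted p under 0.01, with the list median as a blue line. The shaded band spans the quartiles of all tested genes; the median was 0.70 for lipid anchoring and trafficking and -0.28 for adhesion substrates.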

How the data were processed

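RNA of LoVo cells was measured in 3 Control and 3 DCC-2036 libraries, grouped by the titles in the labels. The deposited table holds a normalized signal per RefSeq transcript, which the authors had adjusted to a common depth; the aligner, the counting and the genome build are not given in the sources used here, so depth is unknown and reads of overlapping genes may be shared. The authors' own log2 fold changes, p-values and q-values in the table were not used. The members and lists were chosen with earlier results of these data known. limma 3.58.1 in R 4.3.3 was fitted to log2(value + 1) for 12725 genes. Transcript shares were tested with exact permutation tests in scipy 1.17.1 (Python 3.11.15, numpy 2.4.6, pandas 2.3.3), and matplotlib 3.10.9 drew the plots. The code was tested on simulated data.

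Named genes were all 9 members, at most 6 called genes per list by absolute log2 fold change, other list genes, and for LYN the 3 nearest profiles. Lists covered relatives, anchors and ligases, phosphatases, lipid anchoring and trafficking, adhesion and signalling substrates, the axis of the study, and cell markers. Sequences came from RefSeq (GRCh38.p14) and GENCODE 29 (GRCh38). Alternatives were 3 scalings, 2 filters, a pseudocount of 0.1, sums over or rows for all transcripts, a limma trend, a replicate block, each library left out, and 2 other limits.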

Additional observations from a re-analysis of the deposited data

How the results depend on the processing

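Under the alternatives, 112 of 125 values of the 7 tested members kept their sign and their side of the limit, 4 came to pass it, 8 no longer passed it and 1 changed sign. The log2 fold change of FYN, 0.96, was no longer called without a filter on low values, with the replicate block or where its size had to reach 1, and YES1 (0.48) and FRK (0.81) were called at an adjusted p under 0.05. With 1 library left out, the log2 fold change ranged from 0.35 to 0.62 for YES1, 0.80 to 1.12 for FYN, 1.01 to 1.27 for LYN, -0.59 to 0.10 for LCK and 0.63 to 1.08 for FRK. LCK could not be tested with a value of at least 10 asked in all 6 libraries. The log2 share of transcripts ranged from -0.0055 to 0.0027 for NM_005417.4 of SRC and from -0.2286 to 0.0469 for NM_005356.4 of LCK, and changed sign in no other pair.

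Counts of called genes moved more. With all transcripts as separate rows 6379 were higher and 7250 lower. That fit tested 32323 rows in place of 12725, so its counts cannot be set against the main ones. Where the log2 fold change also had to reach 1 in size 944 were higher and 1930 lower. With 1 library left out 929 to 2717 were higher and 1502 to 3444 lower, each such fit having fewer libraries. With equal totals 1669 were higher and 3442 lower. With the replicate block 1202 were higher and 1909 lower, and LIME1, CBLC, PTPN6, METAP2, HSP90AA1, VCL, AFAP1, CTNND1, ANXA2, PLCG1, KHDRBS1 and CRK were no longer called. The replicate numbers did not pair the libraries, since deviations of same-numbered libraries correlated at 0.081, -0.035 and -0.003. Of 468 values of the 26 called list genes, 103 no longer passed the limit and 0 changed sign; the cause was not tested. Tests on counts (edgeR, DESeq2) were not run, as the values are not counts, and precision at low values is unknown with depth.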
